A study of Mus musculus with 8 samples.

Results

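The Ifi27 family of interferon-inducible genes was followed in epididymal white fat, the visceral fat pad beside the mouse epididymis. Members were taken by name from the deposited gene table: of the 4 names sought, Ifi27, Ifi27l1, Ifi27l2a and Ifi27l2b, 3 are rows of the table, out of 37417 genes in all. No row is named Ifi27. The row named Ifi27l1 carries the identifier ENSMUSG00000064215, to which GENCODE M21 gives the symbol Ifi27, and RefSeq lists Ifi27l1 as a synonym of that gene and Ifi27 as an older synonym of Ifi27l2a. It is called Ifi27l1 below, as in the table. The family was chosen because earlier results of the same comparison had shown Ifi27l2a and Ifi27l2b lower in knockout fat, so their fold changes are given as a description and not as a test.

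The samples were 4 male mice labelled WT and 4 labelled Adiponectin-Cre ERT2-Atg3 flox/flox, all of the C57Bl/6 strain, fed chow and treated with tamoxifen; ages are not given in the labels. CreERT2 is a recombinase that tamoxifen activates, the adiponectin promoter restricts it to adipocytes, and the floxed Atg3 gene encodes a conjugating enzyme of autophagosome formation. Fat also holds vessels, immune cells and fibroblasts, in which this promoter is not active. The labels do not say whether the WT mice carried Cre or floxed alleles.

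Family members encode small hydrophobic proteins, known as ISG12 proteins, that have been found at mitochondria and at the nuclear envelope. Type I interferon induces such genes through the receptor chains IFNAR1 and IFNAR2, the kinases JAK1 and TYK2, and transcription factors that bind their promoters. Human IFI27 is widely used as a marker of interferon activity in blood.

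All members lie on chromosome 12 of build mm10. Ifi27l1 spans chr12:103434211-103440239 on the plus strand, and Ifi27l2a (ENSMUSG00000079017) spans chr12:103442167-103443680 on the minus strand. The row of Ifi27l2b (ENSMUSG00000021208) spans chr12:103442169-103457223 on the minus strand, and so contains nearly the whole of Ifi27l2a. In GENCODE M21, an annotation of the same assembly, Ifi27l2b ends far short of that, at chr12:103450898-103457223, and does not overlap Ifi27l2a. The exonic length of the row is 1308 bases, against 1093 bases in GENCODE M21. The difference of 215 bases equals the stretch of the last Ifi27l2a exon (exon 4, chr12:103442167-103442383, 217 bases) that lies inside the row's span. For Ifi27l2a (463 bases) and Ifi27l1 (1467 bases) the exonic lengths are the same in both sources. Thus the table's model of Ifi27l2b has the length of its own 7 exons plus the end of Ifi27l2a, and reads from that end can count on both rows.

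**Figure D1:**
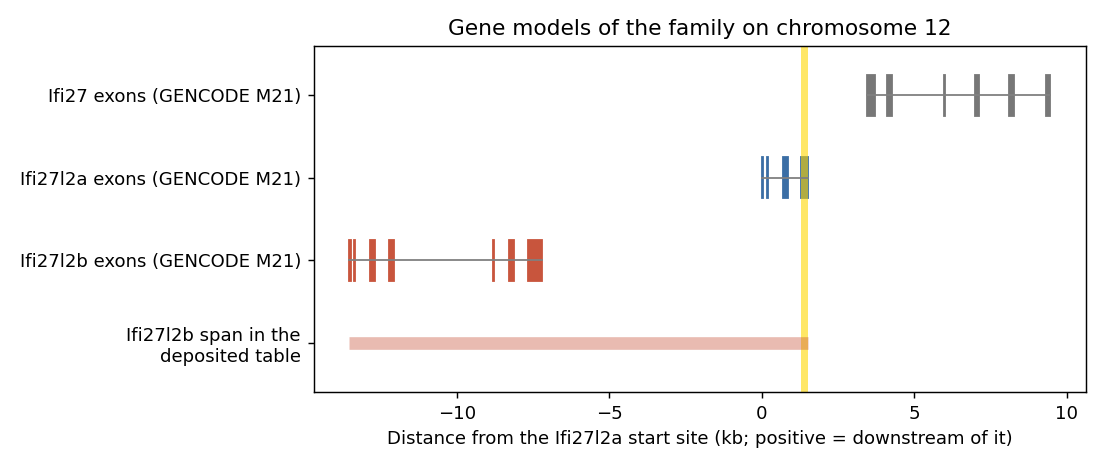
Exons of the family members in GENCODE M21 (boxes) and the span of the Ifi27l2b row in the deposited table (pale bar), plotted by distance in kilobases from the Ifi27l2a start site, with positive values downstream of it; the gene of the Ifi27l1 row, labelled Ifi27 as in GENCODE M21, is on the opposite strand. The yellow band marks the 215 bases of the last Ifi27l2a exon that lie inside the span of the Ifi27l2b row.

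The coding sequence of Ifi27l2a is shown because its end is the part that both rows can hold. It runs over 273 bases (90 codons and a stop) within chr12:103442310-103443633, minus strand. The 74 bases in capitals lie in the last exon, inside the span of the Ifi27l2b row, and the rest of that exon is 3′ untranslated.
Ifi27l2a coding sequence: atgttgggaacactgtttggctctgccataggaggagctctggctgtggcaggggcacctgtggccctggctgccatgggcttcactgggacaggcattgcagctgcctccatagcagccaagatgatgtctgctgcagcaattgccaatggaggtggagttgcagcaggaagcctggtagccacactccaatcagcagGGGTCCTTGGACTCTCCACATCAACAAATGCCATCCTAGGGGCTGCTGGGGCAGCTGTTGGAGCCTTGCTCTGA

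Members share a coding exon of 162 bases, which Ifi27l2b holds in 2 copies. These exons are shown to compare how far reads could be mistaken between members, with capitals marking bases that differ from Ifi27l2a. They lie at chr12:103442832-103442993 (Ifi27l2a, exon 3), chr12:103456358-103456519 and chr12:103451806-103451967 (Ifi27l2b, exons 3 and 6), all on the minus strand, and at chr12:103439401-103439562 (Ifi27l1, plus strand).
Ifi27l2a exon 3: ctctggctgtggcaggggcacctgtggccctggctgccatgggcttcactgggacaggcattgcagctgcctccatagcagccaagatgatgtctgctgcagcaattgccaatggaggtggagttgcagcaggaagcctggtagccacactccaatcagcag
Ifi27l2b exon 3: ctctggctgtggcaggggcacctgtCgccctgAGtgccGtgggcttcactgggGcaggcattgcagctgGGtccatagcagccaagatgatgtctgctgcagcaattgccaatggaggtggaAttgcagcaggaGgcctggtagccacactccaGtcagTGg
Ifi27l2b exon 6: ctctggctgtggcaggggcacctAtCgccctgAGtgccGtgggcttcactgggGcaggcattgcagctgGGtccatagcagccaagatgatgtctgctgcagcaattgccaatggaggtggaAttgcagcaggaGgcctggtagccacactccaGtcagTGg
Ifi27l1 matching exon: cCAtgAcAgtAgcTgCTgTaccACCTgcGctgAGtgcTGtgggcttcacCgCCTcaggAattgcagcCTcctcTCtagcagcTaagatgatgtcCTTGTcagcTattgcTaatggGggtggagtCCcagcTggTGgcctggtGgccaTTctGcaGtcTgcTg

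The Ifi27l2b copies differ from Ifi27l2a at 12 and 13 of the 162 bases, 92.6% and 92.0% identity, and from each other at 1 base. Ifi27l1 differs from Ifi27l2a at 48 bases, 70.4% identity. Reads in this study were 50 bases long. Of the 414 windows of 50 bases in the Ifi27l2a transcript, 2 also occur in the GENCODE M21 transcript of Ifi27l2b and 0 in a transcript of the Ifi27l1 gene. Across all GENCODE M21 transcripts, Ifi27l2b was the 1 other gene with such a shared window. Exact sequence sharing between these genes is therefore rare at this read length, while 217 of the 414 windows (52.4%) touch the 215 bases that the table's Ifi27l2b model takes from Ifi27l2a.

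Total counts ran from 10986375 to 21688464 per library, and the deleted gene checked the labels. Atg3 had 49.0, 44.4, 53.5 and 53.4 CPM (counts scaled to the library total, with TMM normalization between libraries) in wild-type libraries 1 to 4. It had 30.5, 32.1, 30.7 and 27.7 CPM in the knockout libraries in the same order, so each library lay on the side of its label (log2 fold change of knockout against wild-type -0.73, SE 0.086, edgeR adjusted p = 0.0168). Knockout libraries 2 and 3 stood apart from the others: 12 markers of duct epithelium, a tissue that borders this fat pad, summed to 475 and 484 CPM there. The sums were 34.4 and 43.7 CPM in knockout libraries 1 and 4 and 8.84 to 20.7 CPM in wild-type libraries. Fold changes and calls of the family, the number of calls over all genes and calls in the type I and interferon gamma lists, were therefore also computed without libraries 2 and 3; the other results were not.

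Ifi27l2a, the most abundant member in wild-type fat, had 710, 586, 978 and 766 CPM in wild-type libraries 1 to 4. The knockout libraries 1 to 4 gave 287, 180.2, 226 and 152 CPM. Every knockout library lay below every wild-type library, and the lowest wild-type level was 2.04 times the highest knockout level. Means were 760 ± 164 CPM in wild-type mice against 211 ± 59.0 CPM in knockouts (SD, n = 4), a 3.59-fold difference. The log2 fold change of knockout against wild-type (log2FC) was -1.85 with a standard error (SE) of 0.22. Underlying counts were high, from 8276 to 11952 reads in wild-type and from 2438 to 3739 in knockout libraries, so counting error was small beside the spread between mice.

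The Ifi27l2b row followed the same order. Its levels were 571, 458, 767 and 588 CPM in wild-type libraries 1 to 4; the knockout libraries 1 to 4 gave 230.4, 139, 175 and 114 CPM. Groups did not overlap, and means were 596 ± 128 CPM in wild-type mice against 165 ± 50.6 CPM in knockouts (SD, n = 4), a 3.62-fold difference (log2FC -1.86, SE 0.24). Within each genotype the libraries fell in the same order on this row as on Ifi27l2a. Library 3 was highest and library 2 lowest among wild-type mice, and library 1 was highest and library 4 lowest among knockout mice.

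Ifi27l1 gave 249, 262, 345 and 317 CPM in wild-type libraries 1 to 4; the knockout libraries 1 to 4 gave 306, 299, 233 and 309.8 CPM. Genotypes overlapped, with means of 293 ± 45.3 and 287 ± 36.1 CPM (SD, n = 4) and a log2FC of -0.03 (SE 0.14). Its sign turned with the libraries used, to 0.06 without wild-type library 3, 0.0078 without wild-type library 4, 0.06 without knockout library 3 and 0.08 without knockout libraries 2 and 3, so no direction is given. Knockout library 3 lay below the other knockout libraries. In the models of the table no other gene overlaps Ifi27l1. In RefSeq (GRCm38.p6), Ifi27l2a runs from 103433873 to 103443680 and so passes over this gene on the opposite strand, and whether reads were counted by strand is not known from the sources.

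**Figure D2:**
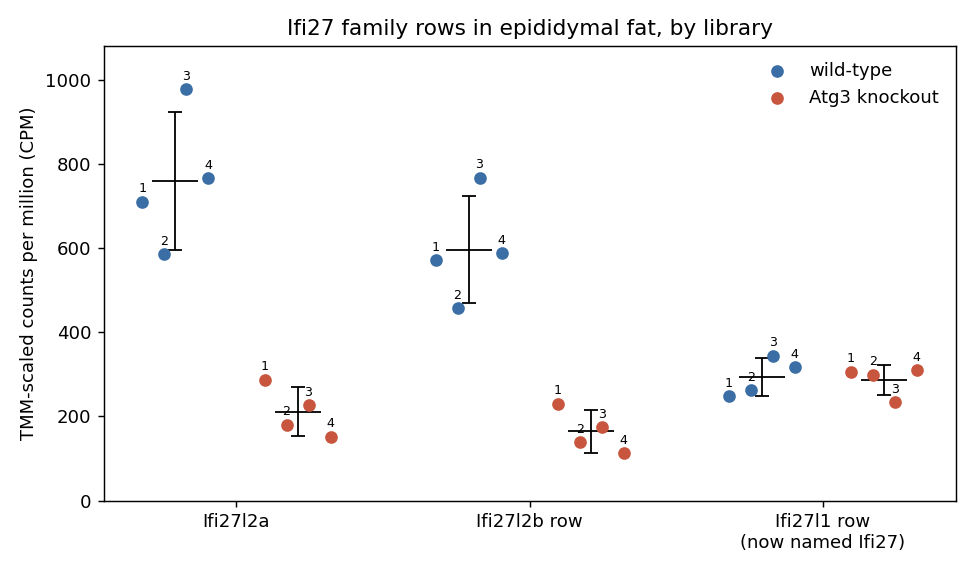
Levels of the 3 family rows in CPM (vertical axis, from 0) in each wild-type and Atg3 knockout library, numbered by replicate, with bars for the mean and SD of 4 libraries. Ifi27l2a and the Ifi27l2b row were lower in all 4 knockout libraries than in any wild-type library, and Ifi27l1 overlapped between genotypes.

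Calls over the whole table place these values. With edgeR's quasi-likelihood test and a Benjamini-Hochberg adjusted p under 0.05, 60 of 14800 tested genes were called (0.405%), of which 19 were lower (0.128%) and 41 higher (0.277%) in the knockout. All 3 family rows were tested, and 2 of them, Ifi27l2a and Ifi27l2b, were among the 19. Since the family was chosen from this comparison, that count carries no weight of its own. The range of wild-type and knockout libraries did not overlap for 1312 tested genes (8.86%), with the knockout lower in 672 (4.54%) and higher in 640 (4.32%). Among the 19 genes called lower, 1 had a larger fitted decrease than Ifi27l2a, and it was the Ifi27l2b row.

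Calls on these rows depended on single libraries, while the size of the change moved little. Both rows lost the call without wild-type library 1 (log2FC -1.88 for each row), wild-type library 2 (-1.95 and -1.97 for Ifi27l2a and Ifi27l2b), wild-type library 4 (-1.84 and -1.87), knockout library 2 (-1.77 and -1.78) or knockout library 3 (-1.87 and -1.88). Ifi27l2b alone lost it without wild-type library 3 (-1.71), where Ifi27l2a stayed called at -1.70. Without knockout libraries 2 and 3 together, both stood at -1.78 and neither was called, nor were they with the replicate number as a block. The number called over all genes also moved: leaving out wild-type library 1, 2, 3 or 4 gave 7, 4, 20 or 8 calls, leaving out knockout library 1, 2, 3 or 4 gave 290, 0, 23 or 44, and leaving out knockout libraries 2 and 3 gave 3. At an unadjusted p under 0.05 there were 2394 genes with all libraries.

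**Figure D3:**
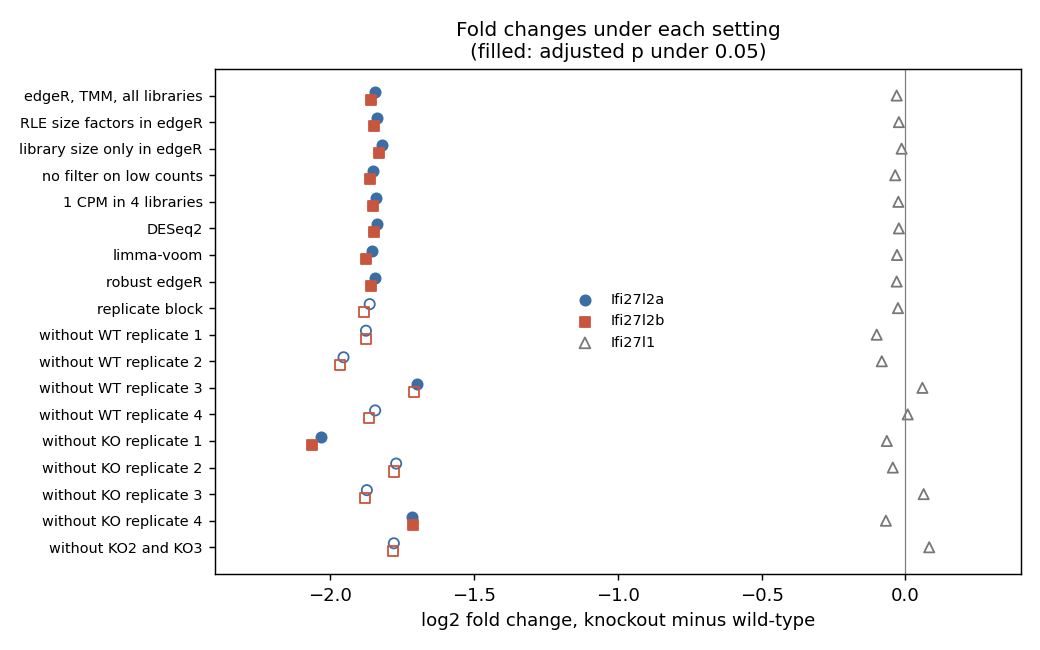
Log2 fold change of knockout against wild-type for Ifi27l2a (circles), the Ifi27l2b row (squares) and Ifi27l1 (triangles) under each normalization, filter, test and left-out library; filled symbols mark an adjusted p under 0.05. Ifi27l2a stayed between -2.03 and -1.70 and Ifi27l1 between -0.10 and 0.08.

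Reads fell on the 2 overlapping rows in nearly fixed proportion. The count of the Ifi27l2b row divided by that of Ifi27l2a was 0.804, 0.782, 0.784 and 0.768 in wild-type libraries 1 to 4; for the knockout libraries it was 0.803, 0.774, 0.773 and 0.746. These ratios overlapped between genotypes and averaged 0.785 ± 0.0147 and 0.774 ± 0.0230 (SD, n = 4). As a share of the summed reads, the Ifi27l2b row held from 42.7% in knockout library 4 (95% exact binomial interval 41.4 to 44.1) to 44.6% in wild-type library 1 (43.8 to 45.4). The intervals cover counting error only, and treat the reads of the rows as separate. The table does not say how many reads of the Ifi27l2b row lie on its own exons, so a change in Ifi27l2b itself and reads from the end of Ifi27l2a cannot be told apart.

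**Figure D4:**
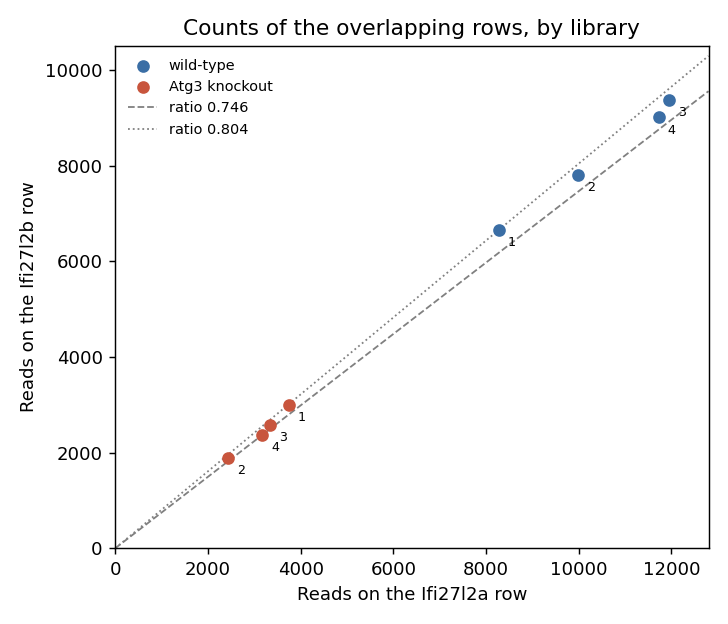
Reads on the Ifi27l2b row against reads on the Ifi27l2a row in each library, numbered by replicate; grey lines mark the lowest (0.746) and highest (0.804) ratio of the counts. Wild-type and knockout libraries lie along the same band, the knockout libraries nearer the origin.

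The overlapping rows were also counted as 1 gene. Because their ratio was nearly fixed, the sum had to give a log2FC close to theirs. Their summed level was 1281, 1043, 1745 and 1354 CPM in wild-type libraries 1 to 4 against 518, 319.7, 401 and 266 CPM in their knockout counterparts, with a log2FC of -1.85 (SE 0.23). This sum counts reads on the shared bases more than once if the authors' counting gave them to both rows.

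Levels between genes were compared on the deposited FPKM scale, which divides by exonic length and library total. Ifi27l2a had 1627, 1259, 1982 and 1636 FPKM in wild-type libraries 1 to 4, which placed it 21st, 26th, 20th and 23rd of all genes in the table. In knockout libraries 1 to 4 it had 623.5, 391, 513 and 316 FPKM and ranked 49th, 82nd, 59th and 103rd. Ifi27l2a therefore remained an abundant transcript of knockout fat. Relative to Ifi27l1 its FPKM level was 9.05, 7.07, 8.99 and 7.65 times as high in wild-type libraries and 2.97, 1.91, 3.07 and 1.56 times as high in knockout libraries, without overlap. The order depends on the division by exonic length. In CPM, Ifi27l2a lay above Ifi27l1 in every wild-type library and below it in every knockout library.

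On the FPKM scale, the mean of Ifi27l2a lay above that of every listed type I interferon-stimulated gene outside the family in both genotypes. Among the 43 listed, the highest wild-type levels were those of Ly6e, a surface protein that restricts some viruses, with 267 ± 17.9 FPKM, and Ifitm3, which blocks virus entry at endosomes, with 210 ± 26.1 FPKM. Ifi27l2a had 1626 ± 295 FPKM and Ifi27l1 198 ± 22.2 FPKM (SD, n = 4). In knockout fat Ly6e had 261 ± 25.1 and Ifitm3 199 ± 12.7 FPKM, while Ifi27l2a had 461 ± 135 FPKM. The order differs in CPM, which is not divided by exonic length. Ly6e had 616 ± 10.8 CPM in wild-type mice and 596 ± 40.5 CPM in knockouts. Ifi27l2a had 760 ± 164 and 211 ± 59.0 CPM, and lay below Ly6e in every knockout library.

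The other interferon-stimulated genes showed no change that passed the test. Of 42 tested type I genes, 0 rose and 0 fell with edgeR, against 0.405% of all tested genes called. An unadjusted p under 0.05 was reached by 0 of them, against 2394 of the 14800 tested genes. DESeq2 also called 0, against 810 genes over the whole table. The edgeR count of calls stayed 0 without knockout libraries 2 and 3, where only 3 genes were called over the whole table. Their log2FC ran from -0.49 to 0.14, with 36 of 42 negative and a median of -0.17. Over all tested genes the median was -0.01 and 52.4% were negative. The lowest p belonged to Tor3a, an interferon-inducible ATPase, with 43.2 ± 5.54 CPM in wild-type mice against 37.8 ± 3.27 CPM in knockouts (log2FC -0.19, edgeR adjusted p = 0.412). Xaf1, an interferon-inducible antagonist of XIAP, had a log2FC of -0.30 (edgeR adjusted p = 0.441), and Trim25, a ubiquitin ligase of the RIG-I pathway, had -0.23 (edgeR adjusted p = 0.456).

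The summed level of the 43 type I genes ordered the wild-type libraries otherwise than Ifi27l2a did, and the knockout libraries in the same order. It was 2679, 2404, 2169 and 2086 CPM in wild-type libraries 1 to 4 and highest in library 1, whereas Ifi27l2a was highest in library 3. In knockout libraries 1 to 4 it was 2557, 2058, 2083 and 1986 CPM, and 3 of these lay below the lowest wild-type library. For both measures the order of the knockout libraries from high to low was 1, 3, 2 and 4.

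Genes that respond mainly to interferon gamma were spread around no change. Of 24 tested, 0 rose and 0 fell with edgeR (against 0.405% of all tested genes called), and the median log2FC was -0.01. At an unadjusted p under 0.05, 1 was higher and 1 lower, against 2394 of 14800 tested genes in either direction. Cxcl10, a chemokine that attracts T cells, had 7.64, 5.04, 4.50 and 4.05 CPM in wild-type libraries and 32.6, 8.72, 14.3 and 6.43 CPM in knockout libraries. Genotypes overlapped for Cxcl10, and library 1 was highest in the knockout (log2FC 1.55, SE 0.49, edgeR adjusted p = 0.176). DESeq2, which called 810 genes over the whole table, called Cxcl10 (log2FC 1.56, adjusted p = 0.0277). Cxcl10 was the 1 gene it called in the type I and interferon gamma lists. Art3 overlaps Cxcl10 on the opposite strand. Nlrc5, an activator of MHC class I genes, had a log2FC of -0.55 (edgeR adjusted p = 0.226), and Gbp6, a guanylate-binding protein, had 0.49 (edgeR adjusted p = 0.347).

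**Figure D5:**
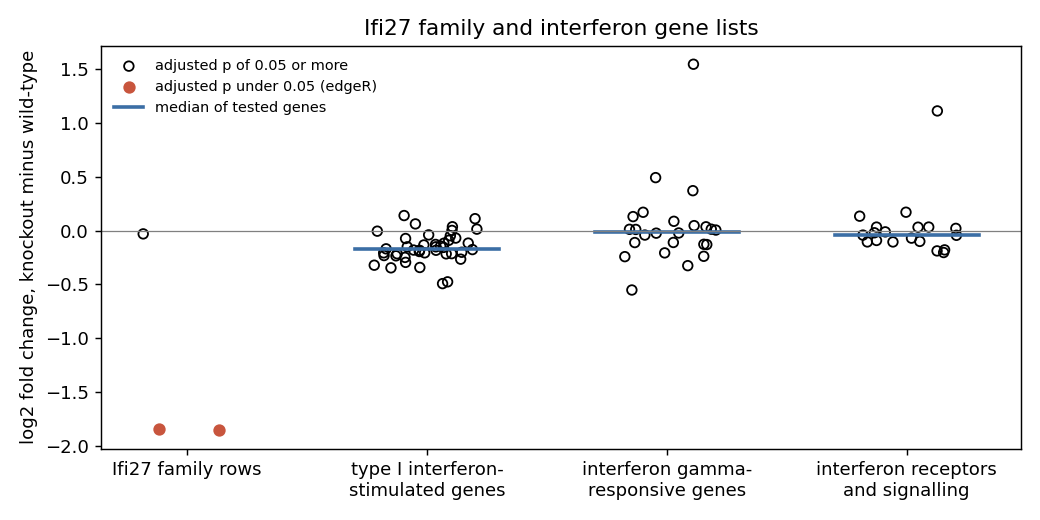
Log2 fold change of knockout against wild-type for each tested gene of the Ifi27 family and of 3 interferon lists, with filled points at an adjusted p under 0.05 (edgeR) and bars at the list medians. The overlapping rows Ifi27l2a and Ifi27l2b lie near -1.85, and the type I genes lie between -0.49 and 0.14.

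Interferon ligands were at or near 0 in both genotypes. Of 14 ligand genes found in the table, 11, among them Ifnb1, had 0 reads in all 8 libraries. A count of 0 in 118731455 reads allows a level of up to 0.0253 CPM (3 reads over all libraries). Ifnab and Ifnk had 1 read each. Ifng, the interferon of T and NK cells, had 12 reads in wild-type and 14 in knockout libraries.

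No receptor or signalling gene of the pathway passed the test. Of 19 tested, 0 rose and 0 fell with edgeR (against 0.405% of all tested genes called), and the median log2FC was -0.04. At an unadjusted p under 0.05, 1 was higher and 2 were lower, against 2394 of 14800 tested genes in either direction. Ifnar1 had 80.9 ± 5.31 CPM in wild-type mice against 75.4 ± 3.67 CPM in knockouts (SD, n = 4; log2FC -0.10, SE 0.073). Ifngr2, the second chain of the interferon gamma receptor, had 49.2 ± 0.707 CPM in wild-type mice against 43.1 ± 1.80 CPM in knockouts (log2FC -0.19, edgeR adjusted p = 0.186). Its genotypes did not overlap, as in 4.54% of tested genes with the knockout lower. Mavs, the mitochondrial adaptor of RNA sensing, had a log2FC of -0.20 (edgeR adjusted p = 0.217). Ifnlr1, a chain of the interferon lambda receptor named Il28ra in the table, had 1.31 ± 0.376 CPM in wild-type mice against 2.85 ± 1.57 CPM in knockouts (log2FC 1.11, edgeR adjusted p = 0.233). Knockout libraries 2 and 3, with the most duct epithelium transcripts, had 3.11 and 4.96 CPM of it. Knockout libraries 1 and 4 had 1.84 and 1.49 CPM, against wild-type values of 0.915 to 1.70 CPM. The part of duct epithelium in the level of Ifnlr1 was not tested.

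Partners described for ISG12 proteins at the nuclear envelope were measured as well, and 0 of 5 passed the test with edgeR (against 0.405% of all tested genes called). At an unadjusted p under 0.05, 2 were lower, against 2394 of 14800 tested genes in either direction. Xpo1, the exporter of proteins from the nucleus, had 97.9 ± 11.3 CPM in wild-type mice against 83.4 ± 4.13 CPM in knockouts (SD, n = 4; log2FC -0.23, edgeR adjusted p = 0.259). The nuclear receptor Nr4a2 had a log2FC of -0.62 (edgeR adjusted p = 0.305), and Nr4a1, which ISG12 is reported to bind, had -0.59 (edgeR adjusted p = 0.721) with 121 CPM in wild-type library 1.

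Among rows with a mean of at least 1 CPM, the 5 tested genes nearest the family on chromosome 12 had positive log2FC. None passed the test with edgeR, against 0.405% of all tested genes called. Ddx24, an RNA helicase 8.34 kb to the left, had 127 ± 9.62 CPM in wild-type mice against 150 ± 9.94 CPM in knockouts (log2FC 0.24, SE 0.083, edgeR adjusted p = 0.211). Its genotypes narrowly did not overlap, as in 4.32% of tested genes with the knockout higher. Otub2, a deubiquitinase 27.9 kb away, had a log2FC of 0.24 (edgeR adjusted p = 0.509), and Asb2, a subunit of ubiquitin ligases 78.2 kb away, had 0.48 (edgeR adjusted p = 0.553). On the right, Ppp4r4, a phosphatase subunit 75.3 kb away, had a log2FC of 0.20 (edgeR adjusted p = 0.621). Farther out, Unc79 (250.2 kb) had 0.45 (edgeR adjusted p = 0.684), and Serpina1f and Serpina1b did not pass the filter on low counts. Serpina1f had 12.8 CPM in knockout library 3 and at most 0.409 CPM in any other library.

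The next row to the right with a mean of at least 1 CPM was an exception in direction. B430119L08Rik, a noncoding gene 439 kb from the family (chr12:103895897-103898784), had 8.84, 7.10, 12.4 and 12.7 CPM in wild-type libraries 1 to 4 against 2.46, 3.84, 4.69 and 4.32 CPM in the knockout libraries. Groups did not overlap, as in 4.54% of tested genes with the knockout lower, but the test was not passed (log2FC -1.41, SE 0.26, edgeR adjusted p = 0.0657). The gene lies opposite Serpina1c, and its count is uncertain without strand information.

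Likeness to the family was measured as the root mean square difference between log2 CPM patterns over the 8 libraries, each centred on its mean, among 14614 genes with at least 1 CPM on average. This is a description, because a gene that differs between genotypes in the same direction scores well by construction. Ifi27l2a and the Ifi27l2b row differed by 0.0324. The nearest other gene to both was 1300015D01Rik, a noncoding gene opposite Ctcfl on chromosome 2, at 0.403 from Ifi27l2a, which fell from 71.3 ± 11.4 to 29.6 ± 3.17 CPM (SD, n = 4; log2FC -1.27, SE 0.12, edgeR adjusted p = 0.0168). Gm15519 and Gm5578, neighbouring pseudogenes (chr6:112563642-112565207 and chr6:112605544-112606779), followed at 0.44 and 0.466, with log2FC of -2.02 and -1.59 (edgeR adjusted p = 0.0501 and 0.0842). B430119L08Rik and Dcst1, a gene of the DC-STAMP family, both lay at 0.523 from Ifi27l2a, and Dcst1 fell from 42.1 ± 9.95 to 19.3 ± 2.36 CPM (log2FC -1.12, edgeR adjusted p = 0.0378). For the Ifi27l2b row Dennd2d took the place of B430119L08Rik, at 0.542 (log2FC -0.95, edgeR adjusted p = 0.114). Genes on the opposite strand overlap Dennd2d, Dcst1 and 1300015D01Rik.

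Ifi27l1 had much closer matches, all with little difference between genotypes. This too follows from the measure, since genes that vary little between libraries lie close to each other. Its nearest genes were Pgm2, a phosphoglucomutase (0.0472), Dcaf4 (0.0499), Mrpl49, a protein of the mitochondrial ribosome (0.0524), Fh1, fumarate hydratase (0.0528), and Usp5, a deubiquitinase (0.0554). Ifi27l1 and Ifi27l2a lay 0.97 apart.

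Cell type markers were set beside the family, since fewer cells of a type and less RNA per cell cannot be told apart in whole tissue. Of 9 marker lists, those of endothelium and of duct epithelium separated the genotypes in their summed level. The 8 endothelial markers summed to 1759 to 1976 CPM in wild-type and 1401 to 1595 CPM in knockout libraries, 1.26-fold lower on average. Each of the 8 had a log2FC below 0 (median -0.34). Genotypes did not overlap for 5 of them, with the knockout lower, against 4.54% of tested genes. With edgeR 0 were called, against 0.405% of all tested genes, and the lowest adjusted p was 0.0716, for Emcn. An unadjusted p under 0.05 was reached by 5, each lower, against 2394 of 14800 tested genes in either direction. No endothelial marker was at 0. The part of these cells in the level of Ifi27l2a was not tested. Duct epithelium markers were higher in knockout libraries, at 34.4 to 484 CPM against 8.84 to 20.7 CPM. Ifi27l2a was highest (287 CPM) in knockout library 1 and lowest (152 CPM) in knockout library 4, the libraries with the lower sums of these markers, and lay between in libraries 2 and 3 (180.2 and 226 CPM). The part of duct epithelium in the level of Ifi27l2a was not tested.

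Summed markers of the other cell types overlapped between genotypes. Adipocyte markers (18 genes) summed to 63970 to 90250 CPM in wild-type and 54320 to 70100 CPM in knockout libraries. The adipocyte sum was highest in wild-type library 3, as was Ifi27l2a. It was lowest in wild-type library 1, while Ifi27l2a was lowest in wild-type library 2, and among knockout libraries it was highest in library 4, where Ifi27l2a was lowest. The log2FC of 16 of the 18 was negative (median -0.31). With edgeR 0 passed the test, against 0.405% of all tested genes called, and the lowest adjusted p was 0.063, for Plin4. At an unadjusted p under 0.05, 7 were lower, against 2394 of 14800 tested genes in either direction. Of the 18, 6 did not overlap between genotypes and were lower in the knockout, against 4.54% of tested genes, and the part of adipocyte content in the level of Ifi27l2a was not tested. Macrophage markers (12 genes) summed to 1651 to 2287 and 1796 to 2390 CPM, and B cell markers (7 genes) to 2024 to 3669 and 2340 to 4457 CPM. T cell markers (9 genes) gave 42.7 to 205 and 51.4 to 122 CPM, and preadipocyte and fibroblast markers (6 genes) 2577 to 3736 and 2155 to 3192 CPM. Mesothelial markers (5 genes) gave 60.9 to 219 and 96.2 to 306 CPM, and neutrophil markers (6 genes, with Ly6g at 0 in all libraries) 5.98 to 8.84 and 3.53 to 8.92 CPM. The mitochondrial share of counts also separated the genotypes, at 3.06 to 4.93% in wild-type and 5.03 to 6.08% in knockout libraries, and its part in these results was not tested.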

How the data were processed

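Per the labels' protocols, polyadenylated RNA was made into stranded TruSeq libraries and sequenced as single reads of 50 bases. Build mm10, Picard and Novoalign 2.8.1 are listed in the submitters' processing notes. How reads were counted, with which annotation and whether by strand, is not given in the sources consulted. The authors deposited 1 table with, per the file headers, a read count and an FPKM value for each gene and library, and exonic lengths. All 158499 FPKM values above 0 equal the count divided by exonic length and library total within 0.1%. Groups and replicates come from sample titles; the labels name 4 mice per genotype, and replicates differed by more than sampling noise in every pair (lowest chi-square per gene 18.2).

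Counts were tested with edgeR 4.0.16 in R 4.3.3: filterByExpr (minimum count 10; 14800 of 37417 genes kept), TMM scaling, quasi-likelihood F test without covariates, Benjamini-Hochberg adjustment over all tested genes, threshold 0.05. SE was derived from the test. The script was tested on simulated data. Alternatives were RLE or library size scaling, other filters, DESeq2 1.42.0, limma-voom (limma 3.58.1), robust edgeR, a replicate block, left-out libraries, and the overlapping rows summed or used singly. Named genes were the members, Atg3, called genes or else the 3 of lowest p in each interferon list, the 4 nearest rows on either side with at least 1 CPM, and the 5 most alike genes per member (log2 CPM with prior count 2). Ly6e, Ifitm3, Ifnar1, Emcn, Plin4 and the ligands were named outside this rule. Members and lists were chosen with earlier results of these data known. Exon coordinates and sequences come from GENCODE M21 (GRCm38, as mm10); starts in the table count from 0 and are printed from 1.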

Additional observations from a re-analysis of the deposited data

Results flagged for a closer look

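Ifi27l1 in the knockout group was the 1 family value set apart within its genotype: knockout library 3 had 233.4 CPM, against 299 to 309.8 CPM in the other 3 knockout libraries. Its gap to the nearest library exceeded the 95% limit of Dixon's test, which chance exceeds in about 1 in 20 groups. Of the 6 combinations of row and genotype, this was the only one past the limit. Library 3 is 1 of the 2 knockout libraries with high duct epithelium markers (484 CPM), and the other, library 2 (475 CPM), was not set apart for Ifi27l1.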

How the results depend on the processing

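The log2FC of Ifi27l2a, the Ifi27l2b row and their sum kept its sign in all settings run, from -2.03 to -1.70, -2.07 to -1.71 and -2.05 to -1.70 over the left-out libraries. With the replicate block it was -1.86, -1.88 and -1.87, and without knockout libraries 2 and 3 -1.78 in each case, and these settings lost the calls. Ifi27l1 changed sign, with values from -0.10 to 0.0633 over left-out libraries (0.0589 without wild-type library 3 and 0.0078 without wild-type library 4) and 0.0826 without knockout libraries 2 and 3. Members called numbered 0 with the replicate block, 0 without knockout libraries 2 and 3, and 0 to 2 over left-out libraries; over all genes the numbers were 14, 3 and 0 to 290, and 810 with DESeq2. DESeq2 called 1 interferon gamma-responsive gene. Same-numbered libraries deviated together unevenly (r of 0.184, -0.106, -0.254 and 0.0577 for numbers 1 to 4). The labels do not say what the number stands for, and these values cannot settle whether the libraries were paired. No other setting changed a call of a member. No log2FC was computed for Ifi27, which names no row. Without counts per exon, depth cannot resolve Ifi27l2b from the end of Ifi27l2a.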
